A study of Drosophila melanogaster with 7 samples.

Results

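The genes described here encode the nuclear subunits of the mitochondrial oxidative phosphorylation complexes. Members were taken by symbol from the gene-level table: every name that starts with ND-, UQCR-, COX or ATPsyn, together with SdhA, SdhB, SdhC, SdhD and RFeSP. This gave 85 of 13771 listed genes. Complex I had 34 ubiquitous copies and 6 paralogs, complex II had 4 ubiquitous copies, complex III had 7 and 3, complex IV had 8 and 8, and complex V had 11 and 4. A paralog is a gene whose name ends in L, L1 or L2. Such fly copies are annotated as testis-biased, and no testis sample was analysed here. ND-MNLL was kept with the ubiquitous copies because its last letters belong to the name of a canonical subunit. Subunits with other names, such as blw for ATP synthase alpha and sun for epsilon, fall outside the rule and were examined as a separate list.

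The libraries came from Drosophila melanogaster ovarian cells expressing GFP from the bam promoter (bamP-GFP), a germline promoter, and sorted live for GFP after enzymatic digestion at 37 °C for 30 min. A short hairpin RNA (shRNA) was driven in the germline by nos-GAL4::VP16, and both groups carried the driver and the reporter. In 4 libraries the shRNA targeted Atx2, the fly Ataxin-2 gene for an RNA-binding protein (Atx2 KD), and in 3 libraries it targeted mCherry, which serves as the control (Control KD). Ribosomal RNA was depleted from 18 ng of RNA per library, and strand-specific libraries were made with no poly(A) selection. The labels used here give neither the age nor the background strain of the flies, and they do not say whether replicates came from separate animals, so the p-values measure the spread between these samples.

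The respiratory chain passes electrons from NADH through complex I, or from succinate through complex II, to ubiquinone, then through complex III and cytochrome c to complex IV, where oxygen is reduced. Complexes I, III and IV pump protons across the inner mitochondrial membrane, and complex V, the ATP synthase, uses the gradient to make ATP. Complexes I, III, IV and V combine subunits from the nuclear and the mitochondrial genome, while complex II is wholly nuclear-encoded. In the Drosophila female germline, mitochondria are replicated and selected in the early cysts before they are passed to the oocyte.

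The knockdown target was examined first. Atx2 stood at 245, 211, 269 and 209 CPM (counts scaled to a fixed library total, with TMM factors) in Atx2 KD replicates 1 to 4 and at 391, 445 and 424 CPM in the controls. The groups did not overlap, and the Atx2 KD mean was 55.5% of the control mean (log2 fold change −0.85, SE 0.10, adjusted p = 0.00166). Library totals ran from 65262402 to 101809997 estimated counts, so that 3 counts equal 0.0295 to 0.0460 CPM. All 14 germline markers were above 1 TPM (transcripts scaled for length and to a fixed library total) in all libraries, and the labels name the cell type as germ cell. Of these markers 4 were lower and 1 higher (8 and 1 with the replicate block described below), with a median log2 fold change of −0.23. Their summed level was 1552 to 2008.5 TPM in Atx2 KD and 1939 to 2568 TPM in the controls. Markers of other cell types were also present. Of 11 tested muscle sheath markers, 11 were higher with the Atx2 shRNA, with log2 fold changes of 0.68 to 0.97. Their summed level was 420 to 632 TPM in Atx2 KD and 251 to 388 TPM in the controls, and Act88F was too low to be tested. Of 12 eggshell and yolk markers, 6 were lower and 0 higher (12 and 0 with the replicate block described below), with summed levels of 5183 to 26579 TPM against 35481 to 69298 TPM. Of 6 haemocyte markers, Pxn was higher and the rest did not pass (4 were higher with the block), with summed levels of 69.6 to 166 TPM against 43.8 to 81.4 TPM. Of 11 niche, escort and early follicle markers, eya and Fas3 were higher and tsh was lower. The part of these cells in the results below was not tested. In bulk RNA, fewer cells of a type and less RNA per cell cannot be told apart.

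The ubiquitous subunits were abundant. The 63 that passed the count filter had mean levels from 89.6 TPM for ND-B22, an accessory subunit of complex I, to 2399 TPM for ATPsynC, the subunit of the rotating ring of ATP synthase. The exception was ND-B8, an accessory complex I subunit, at 1 to 9 counts per library and a mean of 0.30 TPM. Within a library the complexes fell into a graded order of level per length. The median subunit of complex II was at 117 TPM and that of complex I at 164 TPM over the 7 libraries. Complex III followed at 334 TPM, and complexes V and IV were highest at 542 and 569 TPM. Complexes IV and V did not differ beyond their spread between libraries, with 599 ± 36.4 and 595 ± 23.4 TPM in Atx2 KD (SD, n = 4).

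Ubiquitous subunits leaned to higher levels in Atx2 KD cells. Of the 72 members tested, 12 were higher and 1 lower at an adjusted p of 0.05, while 5.61% of all 10514 tested genes were higher and 7.67% lower. The members' shares were 16.7% higher and 1.39% lower. Among the 63 ubiquitous copies tested, 11 were higher and 0 lower in edgeR (21 and 0 in DESeq2). Of them 58 had a fold change above 0, or 92.1%, against 51% of all tested genes. The changes were small: the median log2 fold change was 0.18 over the ubiquitous copies and 0.006 over all tested genes. With the replicate number as a block, which the pairing of same-numbered libraries allows, 30 of 72 members were higher and 1 lower, against 13.8% and 14.2% of all genes (28% in either direction). The block added 18 members to the higher calls, among them ND-49, COX4, ATPsynB and UQCR-14, whose exons lie wholly opposite those of CG32576. In 20 of 72 members every Atx2 KD library exceeded every control, and 12.3% of all tested genes showed that order.

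**Figure D1:**
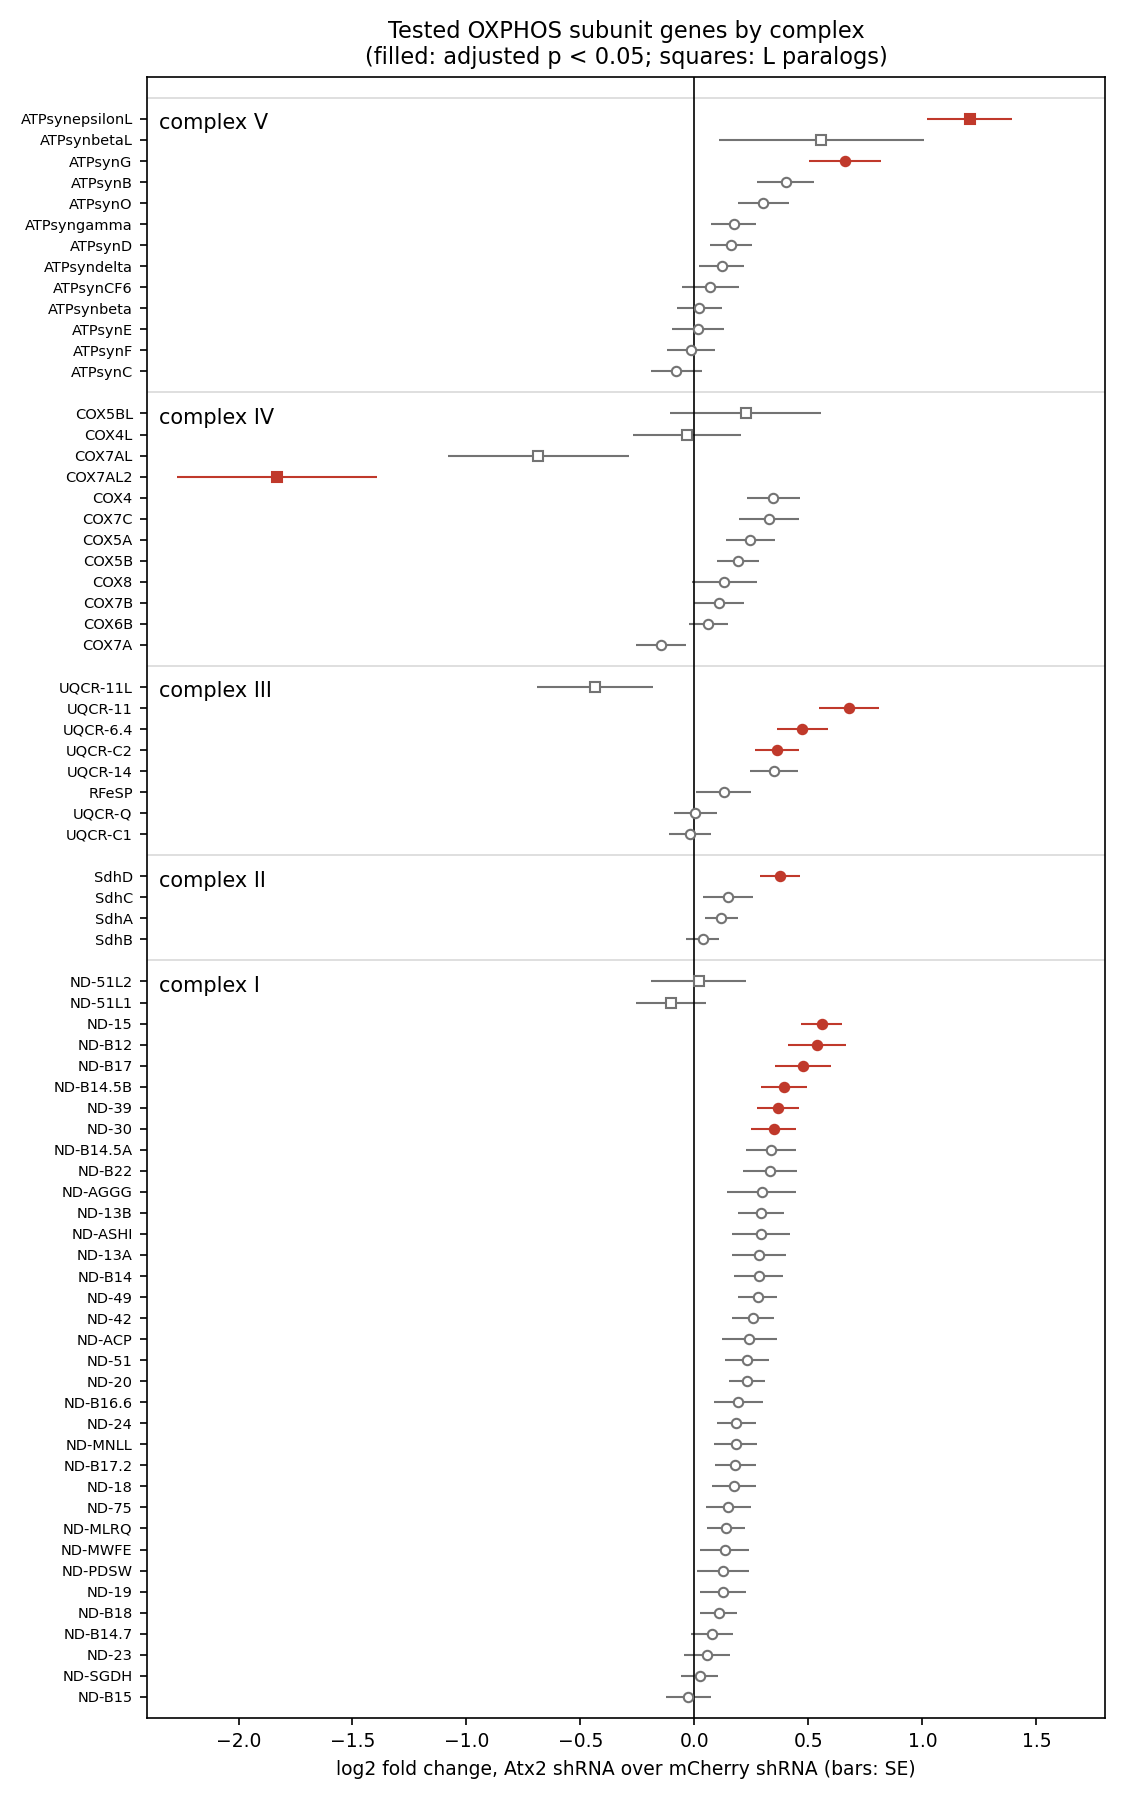
Log2 fold change (Atx2 shRNA over mCherry shRNA, x axis, bars are SE) of the 72 tested members, grouped by complex; filled symbols passed an adjusted p of 0.05 and squares are L paralogs. Of 63 ubiquitous copies 58 lie to the right of 0, and COX7AL2 is the 1 called member to the left.

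Complex I held 6 of the 11 ubiquitous copies that were higher, out of 33 tested, and 17 of 33 were higher with the block. Its median log2 fold change was 0.23, and 32 of the 33 values were above 0. ND-15, the fly counterpart of the mammalian accessory subunit NDUFS5 (FBgn0031228, plus strand of arm 2L from 114726 to 156030), gave 48.8, 56.6, 51.8 and 49.3 CPM in Atx2 KD. The controls gave 32.2, 38.7 and 34.4 CPM. All Atx2 KD libraries lay well above the highest control, a log2 fold change of 0.56 (SE 0.09, adjusted p = 0.00555). ND-B12, the counterpart of NDUFB3 in the membrane arm, was at 33.9, 46.9, 41.1 and 39.6 CPM against 23.3, 29.5 and 30.7 CPM. Its groups were separate too, though Atx2 KD replicate 1 came close to the controls (0.54, SE 0.13, adjusted p = 0.0280).

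The other complex I calls were smaller. ND-B17, another membrane-arm accessory subunit (arm 2L, 15749319 to 15751078, minus strand), was at 75.4, 107, 88.3 and 80.0 CPM against 58.6, 67.6 and 63.1 CPM. The groups did not overlap, and replicate 2 was the highest library (0.47, SE 0.12, adjusted p = 0.0366). ND-B14.5B, the counterpart of NDUFC2 (arm 2L, 3144953 to 3145848, minus strand), had a log2 fold change of 0.39 (SE 0.10, adjusted p = 0.0359), with 44.8 ± 3.94 CPM in Atx2 KD (SD, n = 4) and 34.2 ± 3.77 CPM in the controls (SD, n = 3). ND-39, the counterpart of NDUFA9 (arm 3L, 20492082 to 20497084, plus strand), rose from 141 ± 9.53 to 182 ± 18.0 CPM (0.37, SE 0.09, adjusted p = 0.0337).

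ND-30, the counterpart of NDUFS3, was the 1 called member of the conserved core set of complex I subunits (arm 3L, 3158485 to 3159578, minus strand). With the block 4 core subunits were higher, ND-20, ND-49, ND-51 and ND-30. ND-30 was at 101, 131, 112 and 108 CPM against 82.1, 94.2 and 90.3 CPM, with no overlap. Its adjusted p of 0.0497 stood at the threshold (log2 fold change 0.35, SE 0.10). Of the 7 nuclear core subunits tested, 7 had fold changes above 0, with a median of 0.23. The 26 tested accessory subunits had a median of 0.25 with 5 called. Of the members placed in complex I by symbol alone, ND-MLRQ was the most abundant per length. ND-MLRQ did not pass (0.14, SE 0.08, adjusted p = 0.304), and neither did ND-MNLL, the next (0.18, adjusted p = 0.228). ND-MNLL lies wholly within exons of CG45089 on the same strand in the annotation used, so its counts are uncertain.

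In complex II, 1 of the 4 subunits was higher. SdhD, which with SdhC holds the enzyme in the inner membrane (arm 3R, 23759483 to 23760600, minus strand), was at 48.6, 58.9, 56.2 and 52.3 CPM against 38.7, 43.5 and 42.9 CPM. The groups were separate by about the spread within them (log2 fold change 0.37, SE 0.09, adjusted p = 0.0268). SdhC (0.15, adjusted p = 0.403), the flavoprotein SdhA (0.12, adjusted p = 0.314) and the iron-sulphur subunit SdhB (0.04, adjusted p = 0.771) did not pass. SdhD shares 13.9% of its exon bases with PTPMT1 on the opposite strand (−0.21, adjusted p = 0.195).

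In complex III, 3 of 7 ubiquitous subunits were higher, with a median log2 fold change of 0.35. UQCR-11, the counterpart of the mammalian hinge protein at the cytochrome c1 side (plus strand of arm 3L from 25120709 to 25126171), had 34.3, 47.7, 45.8 and 40.8 CPM against 28.2, 28.4 and 22.5 CPM. Every Atx2 KD library was above every control (0.68, SE 0.13, adjusted p = 0.0123), which made it the largest change among ubiquitous members in this fit. UQCR-6.4, a small membrane subunit, was at 34.6, 46.3, 43.1 and 37.3 CPM against 28.1, 31.8 and 27.2 CPM. It was higher by 0.47 (SE 0.11, adjusted p = 0.0267) without overlap.

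UQCR-C2, a core protein on the matrix side (plus strand of arm 3L from 16584124 to 16586111), had 245, 296, 271 and 244 CPM against 184, 209 and 223 CPM (0.36, SE 0.10, adjusted p = 0.0395). Its partner core protein UQCR-C1 had means of 441 ± 37.5 CPM (n = 4) and 448 ± 37.3 CPM (n = 3, both SD), and the groups overlapped (−0.02, SE 0.09, adjusted p = 0.906). UQCR-Q, the most abundant complex III member per length, had means of 141 ± 9.73 and 140 ± 15.9 CPM (adjusted p = 0.985). The Rieske iron-sulphur protein RFeSP did not pass (0.13, adjusted p = 0.516). Subunits of 1 complex thus had unequal values, and the difference between them was not tested.

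Of the 8 ubiquitous complex IV subunits 0 passed in edgeR, while 3 had an unadjusted p under 0.05 and DESeq2 called 1. Their median log2 fold change was 0.16, and 7 of 8 were above 0, from COX4 at 0.35 (SE 0.12, adjusted p = 0.0832) down to COX7A at −0.15 (SE 0.11, adjusted p = 0.404). COX4, the large nuclear subunit that touches the catalytic core, was at 176, 231, 214 and 180 CPM against 144, 177 and 151 CPM. Atx2 KD replicate 1 lay just below the highest control. COX6B and COX8, the most abundant per length, had values of 0.06 and 0.13 and overlapping groups. With the block, COX4, COX5A and COX7C were higher.

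In complex V, 1 of 11 ubiquitous subunits was higher. ATPsynG, subunit g of the membrane part, which in yeast and mammals takes part in dimer formation (arm 2L, 10975522 to 10976399, minus strand), was at 91.8, 140, 114 and 94.9 CPM against 66.9, 80.1 and 62.0 CPM. The groups did not overlap, though replicates 1 and 4 were nearer to the controls than replicates 2 and 3 (0.66, SE 0.16, adjusted p = 0.0274). The peripheral stalk subunits ATPsynB (0.40, adjusted p = 0.0689) and ATPsynO (0.30, adjusted p = 0.104) had separate groups but did not pass. With the block both passed (adjusted p = 0.00135 and 0.00503), as did ATPsyngamma of the central stalk (adjusted p = 0.0363), which made 4 of 11 higher.

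The most abundant complex V members had overlapping groups. ATPsynC was at 1542, 1852, 1955 and 1760 CPM against 1670, 1979 and 1982 CPM (−0.08, SE 0.11, adjusted p = 0.670). The catalytic subunit ATPsynbeta was at 1344 ± 114 CPM (SD, n = 4) against 1323 ± 105 CPM (SD, n = 3), a value of 0.02 (SE 0.10, adjusted p = 0.909). ATPsynbeta and ND-49 (0.28, SE 0.08, adjusted p = 0.0612) were the 2 members on chromosome 4. Across the 63 ubiquitous copies, log2 fold change and log2 mean TPM had a Pearson r of −0.32 and a Spearman rho of −0.29, a description over genes that share the same 7 libraries.

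Per length, the median subunit of each complex was higher in Atx2 KD. The median complex I subunit was at 167, 176, 179 and 174 TPM in Atx2 KD and at 142, 141 and 147 TPM in the controls. The median of complex III was 366 ± 10.7 TPM (SD, n = 4) against 295 ± 13.2 TPM (SD, n = 3), and that of complex V 595 ± 23.4 against 510 ± 34.4 TPM. For complexes II and IV it was 124 ± 4.52 against 113 ± 2.36 TPM and 599 ± 36.4 against 528 ± 19.0 TPM. For each of the 5 complexes the median in every Atx2 KD library was above that in every control. The summed TPM of complex V did not separate the groups, with 7895, 8349, 8902 and 8395 TPM against 7387, 7747 and 8202 TPM. By gene, 44 of the 63 ubiquitous copies had TPM groups that did not overlap, all of them higher, or 69.8%, while 14.7% of all tested genes were separate upward and 10.1% downward. TPM is a share of each library's total per length, so it also moves with the other transcripts: eggshell and yolk markers held 35481 TPM or more in each control.

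**Figure D2:**
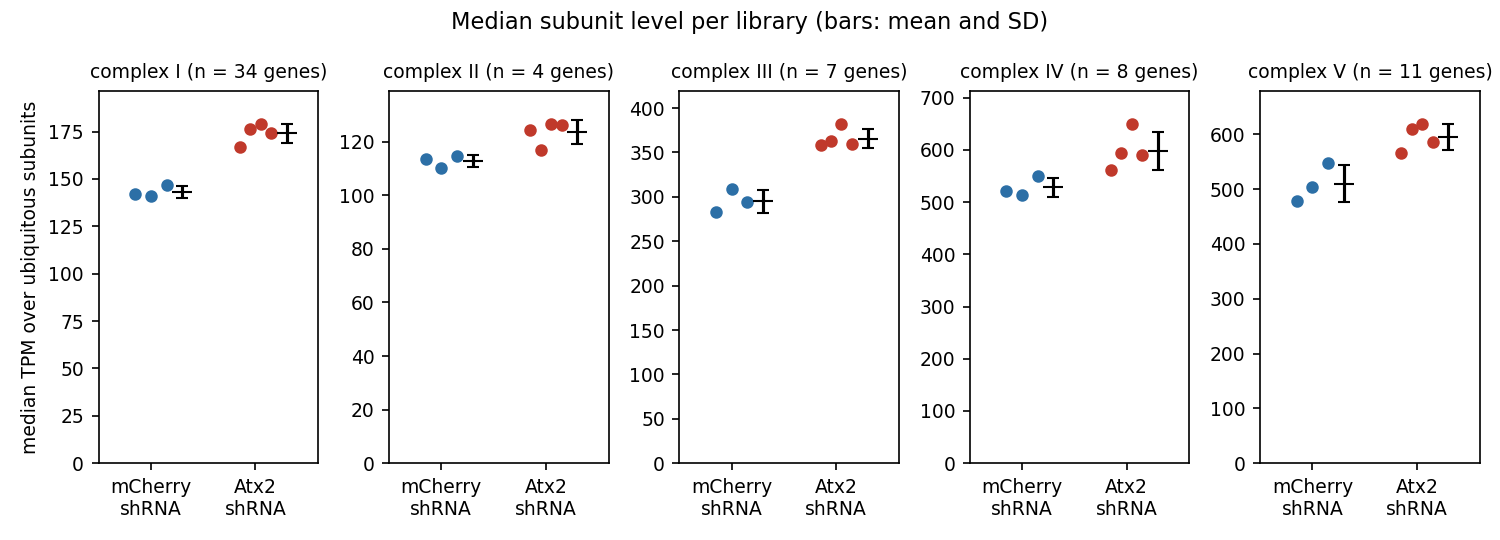
Median TPM over the ubiquitous subunits of each complex (y axis from 0, a scale per panel) in each library, with bars for mean and SD. In each panel the 4 Atx2 shRNA libraries lie above the 3 mCherry shRNA libraries, as for complex I at 167 to 179 against 141 to 147 TPM.

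In CPM the libraries were less cleanly separated. The median deviation of the ubiquitous copies from their own 7-library mean was −0.08, 0.27, 0.15 and 0.03 on the log2 scale in Atx2 KD replicates 1 to 4. The controls were at −0.25, −0.01 and −0.08, so replicate 1 of Atx2 KD lay among the controls. The shortest of 4 equal length classes of all tested genes had medians of −0.06, 0.16, 0.04 and 0.02 against −0.06, 0.02 and −0.07. Atx2 KD replicate 2 was highest in both sets, and control replicate 1 was lowest for the subunits but not for the short genes. The mean of the muscle sheath markers was higher in every Atx2 KD library than in every control. Control replicate 1 was lowest of the 7 libraries for the subunits (−0.25) and also for the muscle markers (−0.76). In Atx2 KD, replicate 3 was highest for muscle markers (0.57). Replicate 2, the highest for the subunits, was lowest of the 4 for muscle markers (0.14). The relation between these sets was not tested.

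**Figure D3:**
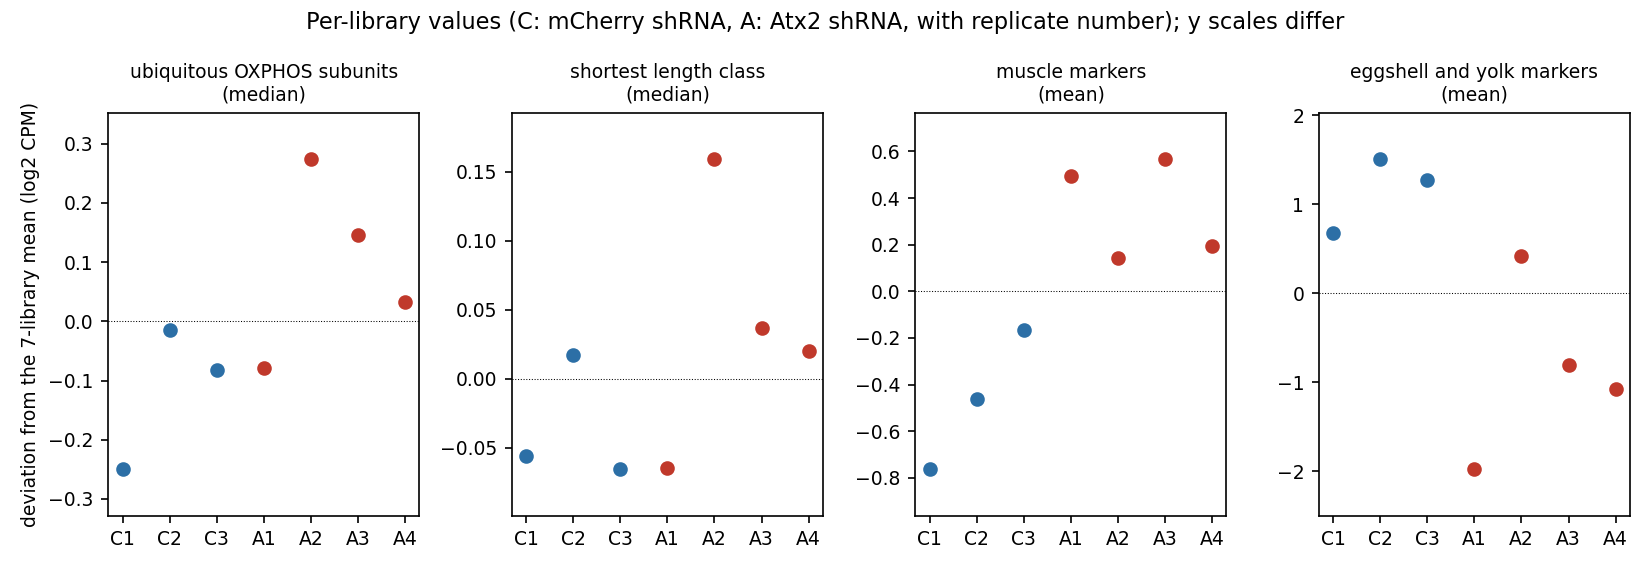
Deviation from the 7-library mean in log2 CPM (y axis, scales differ) for ubiquitous subunits, the shortest length class of tested genes, muscle sheath markers and eggshell and yolk markers, by library (C control, A Atx2 shRNA, with replicate number). The subunits of A1 (−0.08) lie within the control range. Muscle markers separate the groups, and so do eggshell and yolk markers.

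Most of these genes are short. Of the 63 ubiquitous copies tested, 51 fell in the class of genes with the shortest effective length, in which the median longest transcript was 902 bases. In that class, 8.06% of all genes were higher and 3.39% lower, with a median log2 fold change of 0.09 and 60.3% of values above 0. The members in it had 9 of 51 higher, or 17.6%, a median of 0.19 and 94.1% of values above 0. With the block 23 of the 51 were higher, and 445 of the 2629 genes in the class. Among the ubiquitous copies themselves, log2 fold change and log2 length had a Pearson r of −0.20 and a Spearman rho of −0.11. When each library's trend with length was taken out, 15 of 72 members were higher and 2 lower, where 7.32% of all genes were higher and 9.17% lower, and the median over the 72 was 0.11. Of the 72 members, 51 then had a fold change above 0, and 62 did without this step. COX7A then joined the lower calls at −0.27 (adjusted p = 0.0368).

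**Figure D4:**
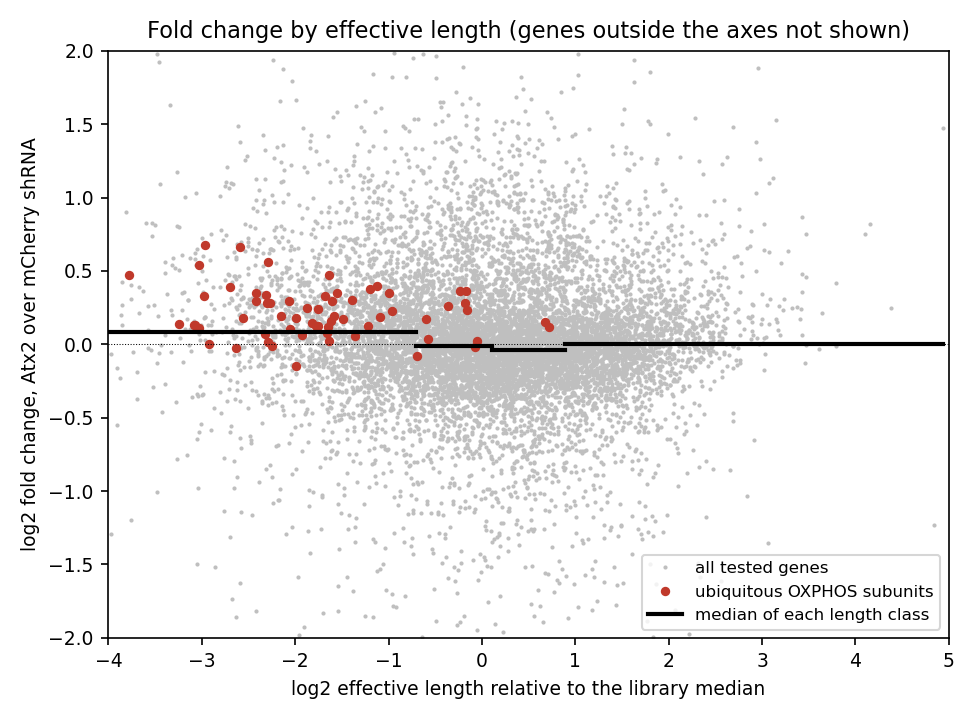
Log2 fold change (y axis) of all tested genes (grey) and ubiquitous subunits (red) by log2 effective length relative to the library median (x axis); black lines are medians of the 4 length classes. The subunits gather at short lengths, where the class median is 0.09, and their own median there is 0.19.

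Most paralogs were at or near 0 counts. Of 21 L copies, 12 had at most 6 counts in any library and were not tested, and UQCR-6.4L and COX6AL2 were at 0 counts in all 7 libraries, which allows at most 0.0460 CPM in the shallowest. Of the 9 tested, 1 was higher and 1 lower. ATPsynepsilonL, a copy of the epsilon subunit of the ATP synthase stalk (FBgn0051477, plus strand of arm 3R from 10121773 to 10122320), had 3.73, 3.89, 3.96 and 3.52 CPM against 1.66, 1.35 and 1.88 CPM. The groups were far apart relative to their spread (log2 fold change 1.21, SE 0.19, adjusted p = 0.00465), the largest rise among members in this fit. Per length it made up 2.38 ± 0.227% (SD, n = 4) of the pair with the ubiquitous copy sun in Atx2 KD and 1.12 ± 0.245% (SD, n = 3) in the controls. The ubiquitous copy sun itself did not pass (0.17, SE 0.10, adjusted p = 0.309).

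COX7AL2 (arm 2L, 2192525 to 2197912, minus strand) was the 1 lower member, at 0.184, 0.050, 0.146 and 0.150 CPM against 0.487, 0.465 and 0.475 CPM. All its counts lay between 4 and 47, so the fold change of −1.83 (SE 0.44, adjusted p = 0.0280) rests on few reads. Per length the groups overlapped, with Atx2 KD replicate 1 at 1.35 TPM above all controls (0.908 to 1.05 TPM). COX7AL2 did not pass in limma on log2(TPM + 1) (−0.37, adjusted p = 0.269) or on log2(TPM + 0.1) (−0.91, adjusted p = 0.217). It also did not pass without Atx2 KD replicate 3 or 4 or control replicate 1 or 2 (adjusted p from 0.0601 to 0.0993). ND-51L2 and ND-51L1, copies of the flavin-binding complex I subunit ND-51, were the most expressed complex I paralogs at 10.9 ± 1.40 and 4.75 ± 0.632 CPM in Atx2 KD (SD, n = 4). They did not pass (adjusted p = 0.966 and 0.686). ND-51L2 held 8.08 ± 1.05% of its pair's TPM in Atx2 KD and 9.12 ± 2.92% in the controls, the highest share of any paralog here. ATPsynbetaL ranged from 0.496 to 2.18 CPM with overlapping groups (log2 fold change 0.56, adjusted p = 0.440). Without control replicate 3, its highest control, ATPsynbetaL was higher (1.36, adjusted p = 0.0327). UQCR-11L did not pass (−0.44, adjusted p = 0.281). Its share of the pair with UQCR-11 was 1.72 ± 0.231% in Atx2 KD against 3.75 ± 0.363% in the controls. Mean TPM of the partner UQCR-11 was 275 in Atx2 KD against 161 in the controls, and that of UQCR-11L was 4.78 against 6.23.

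Transcript levels added detail for a few members. Of 198 listed transcripts of members, 167 were tested, and 6 were higher and 1 lower. That is 4.19%, near the 4.71% of all 21728 tested transcripts (2.05% higher and 2.66% lower). For ND-15, transcript FBtr0078118 had 28.8 ± 1.78 CPM in Atx2 KD (SD, n = 4) and 13.0 ± 2.86 CPM in the controls (SD, n = 3), a log2 fold change of 1.15 (SE 0.15, adjusted p = 0.0120). Its share of ND-15 went from 36.7 ± 4.37% to 55.6 ± 1.55%. The share of ND-15 transcript FBtr0078117 went the other way, from 47.2 ± 1.58% to 23.6 ± 1.41%. The level of FBtr0078117 did not pass (−0.43, SE 0.13, adjusted p = 0.108). ND-MLRQ, which did not pass at the gene level, had FBtr0070040 lower (−0.75, SE 0.14, adjusted p = 0.0336) and FBtr0331408 higher (0.98, SE 0.18, adjusted p = 0.0298), neither of them the main transcript of the gene. For SdhA, FBtr0086554 rose from 31.6 ± 0.859 to 45.2 ± 3.53 CPM (0.51, SE 0.09, adjusted p = 0.0234). With the block, SdhA FBtr0086554 (adjusted p = 0.0544) and ND-MLRQ FBtr0331408 (adjusted p = 0.0505) did not pass. Those of the 167 that passed were ND-15 FBtr0078118, ND-MLRQ FBtr0070040 and ATPsynB FBtr0076405, or 3, where 3.01% of all tested transcripts did (1.33% higher and 1.68% lower).

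Genes that work beside the members gave mixed counts. Of the 7 subunits named outside the rule 0 passed in edgeR, 3 had an unadjusted p under 0.05, DESeq2 called 1 higher, and the block called 2 higher and 1 lower, with a median log2 fold change of 0.17, close to that of the ubiquitous members. Among the 13 subunits of the mitochondrial genome, 7 were higher and 0 lower, with a median of 0.74. The calls sat mainly in complex I, where 6 of 7 were higher: mt:ND2 (2.17, SE 0.31, adjusted p = 0.00340), mt:ND6 (1.48, SE 0.24, adjusted p = 0.00546) and mt:ND5 (0.97, SE 0.18, adjusted p = 0.0102) were the largest of these calls. In complex IV 1 of 3 was higher, and in complexes III and V 0 of 3 passed in edgeR (2 at an unadjusted p under 0.05, 1 in DESeq2 and 2 with the block). mt:CoI, the most abundant of these by count, was at 5100 ± 487 CPM (SD, n = 4) against 5027 ± 962 CPM (SD, n = 3; adjusted p = 0.945). Cyt-c1L, a copy of cytochrome c1 outside the naming rule, rose from 2.44 ± 0.172 to 12.9 ± 0.697 CPM (2.40, SE 0.12, adjusted p = 2.93e-05), while the ubiquitous Cyt-c1 did not pass (0.13, adjusted p = 0.410).

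Regulators and partner pathways showed few calls. Of 12 assembly factors found under their listed symbols 0 passed in edgeR or DESeq2, with a median of −0.03 and 3 at an unadjusted p under 0.05, while the block called 2 higher. Of 9 genes for mitochondrial DNA upkeep and transcription 0 passed in either tool, with 1 at an unadjusted p under 0.05. In the tricarboxylic acid cycle, Fum1 (fumarase) rose by 0.30 (SE 0.08, adjusted p = 0.0375), muc, a subunit of the pyruvate dehydrogenase complex, fell by 0.35 (SE 0.08, adjusted p = 0.0217), and 14 of 16 did not pass. The block called 2 higher and 2 lower. Among 13 regulators of mitochondrial biogenesis 0 were higher and 2 lower in edgeR, 0 and 4 in DESeq2, and 1 and 4 with the block. srl, also called spargel, the fly PGC-1 coactivator, was at 329 ± 26.1 CPM (SD, n = 4) against 461 ± 43.2 CPM (SD, n = 3), a log2 fold change of −0.49 (SE 0.09, adjusted p = 0.0110). ERR, a nuclear receptor, was lower by a log2 fold change of −0.41 (SE 0.11, adjusted p = 0.0447), with overlapping groups.

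Several calls carry limits. Leaving out Atx2 KD replicate 3, control replicate 1 or control replicate 2 left 3 of the 13 calls each time, and ND-15, UQCR-11 and ATPsynepsilonL passed without any 1 of the 7 libraries. Without Atx2 KD replicate 4, 5 calls were left, and without Atx2 KD replicate 2 or control replicate 3, 8 each. All 13 were kept without Atx2 KD replicate 1. Over all tested genes the higher calls also fell, from 590 to 321 without Atx2 KD replicate 3. They fell to 182 and 186 without control replicates 1 and 2. With the muscle marker mean as a covariate, a choice made after seeing the data and nearly confounded with the groups, 0 members passed in edgeR and the median was 0.14. In that fit 53 members had a fold change above 0. At an unadjusted p under 0.05 there were 8 of 72 members, or 11.1%, and 10.9% of all tested genes. UQCR-6.4 shares 40.5% of its exon bases with POSH on the opposite strand (−0.13, adjusted p = 0.308), and ND-15 shares 15.7% with Pus10 (−0.42, adjusted p = 0.0365). Whether strand was used in assigning reads is not given in the sources used here.

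**Figure D5:**
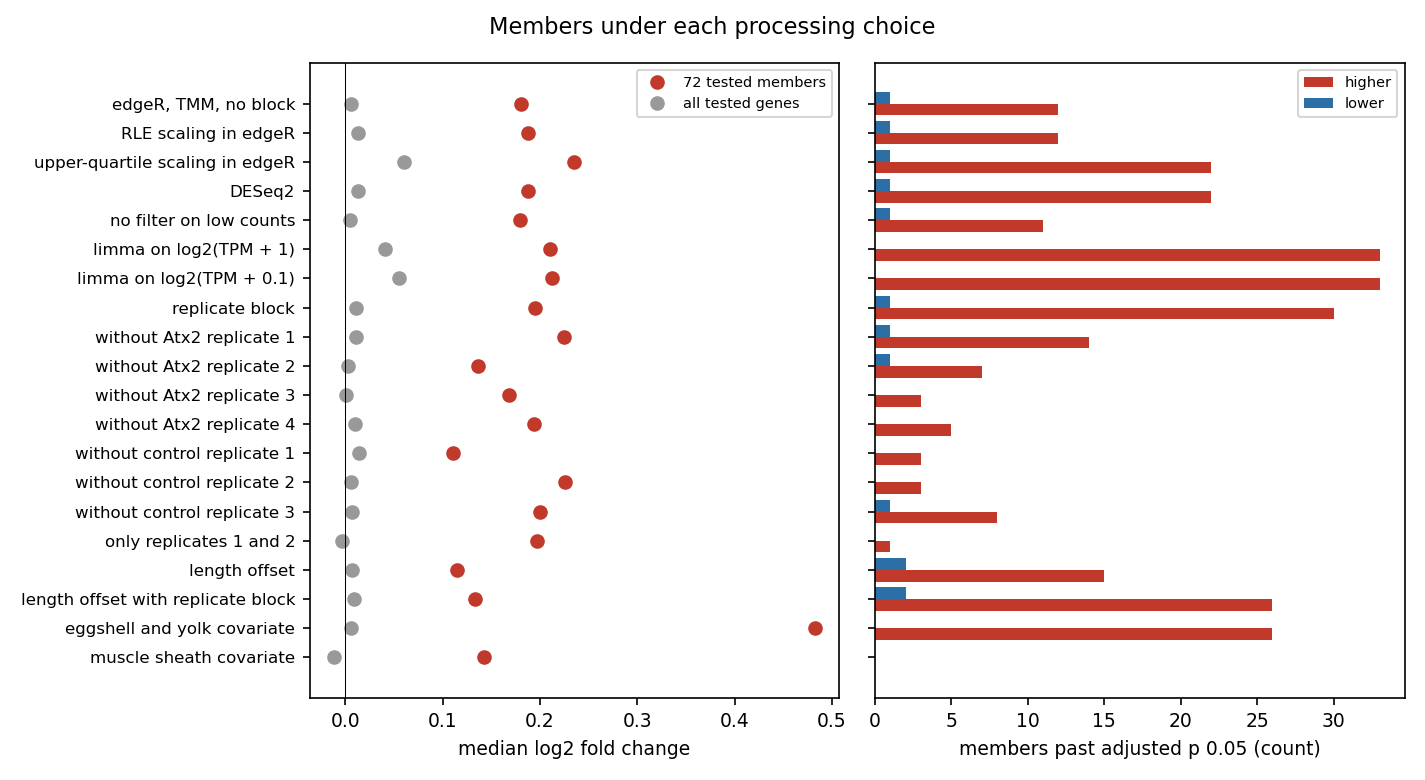
Median log2 fold change of the 72 members and of all tested genes (left) and number of members past an adjusted p of 0.05 (right) under each processing choice. The members' median lies above that of all genes under each choice, from 0.11 to 0.48, while the higher calls run from 0 to 33.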

How the data were processed

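Reads were quantified with Salmon 1.9.0 after bcl2fastq 2.20, Trim Galore 0.6.7 and cutadapt 2.10, per the submitters' processing notes. The index, build and strand setting are not given in the sources used here. The authors deposited estimated counts, not normalized per the labels, and TPM values, which are scaled for effective length, for each gene and transcript.

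Estimated counts were rounded, filtered with filterByExpr (minimum count 10, minimum total 15), scaled by TMM and tested two-sided in edgeR 4.0.16 (R 4.3.3) by quasi-likelihood F tests, with Benjamini-Hochberg adjustment over all 10514 tested genes or 21728 tested transcripts. The group was the only term. SE is the size of the log2 fold change divided by the square root of F. CPM are TMM-scaled counts. limma 3.58.1 (on TPM) and DESeq2 1.42.0 served as alternatives. The edgeR script was tested on simulated data.

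Same-numbered libraries deviated together from their group means (r of 0.15, 0.34 and 0.52 for numbers 1 to 3, which come from the sample titles). For number 1 this was no closer than Atx2 KD replicate 2 with control replicate 1 (r of 0.16). The block is printed where it changes a call or moves a count of calls by over 1.5 times. The block contrast compares replicates 1 to 3 only, since Atx2 KD replicate 4 has no control of its number. No pair of libraries of the same group agreed within sampling noise (chi-square per degree of freedom 45.6 or more). Library totals set the 3-count floor, which covers counting error only. Genes were named by rule: called members, the 2 of highest mean TPM per complex, paralogs of at least 1 CPM, the 3 largest calls per marker or pathway list, and Atx2; others named were chosen after their values were seen. Members and lists were chosen with earlier results of these data known. Positions come from the Ensembl release 115 annotation of BDGP6.54, matched by FlyBase ID. No sequence is shown.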

Additional observations from a re-analysis of the deposited data

How the results depend on the processing

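The median log2 fold change of the 72 tested members stayed above 0 and above that of all tested genes under each of the 19 alternatives. It ranged from 0.11 to 0.23 except with the eggshell and yolk covariate, where it was 0.48. The number of calls depended on the choice. For higher members it was 22 with upper-quartile scaling, 22 with DESeq2, 33 with limma on log2(TPM + 1) and 33 on log2(TPM + 0.1), 30 with the replicate block, 26 with the length offset and replicate block, 26 with the eggshell and yolk covariate, 1 with replicates 1 and 2 only (unadjusted p under 0.05 in 15, or 20.8%, against 23.4% of the genes tested there) and 0 with the muscle sheath covariate added after seeing the data. Leaving out a library gave 3 to 14 higher and 0 to 1 lower members. Lower members were 2 with either length offset and 0 with limma on TPM, replicates 1 and 2, or either covariate. With no filter on low counts, with RLE scaling and with the length offset alone, the higher count was 11, 12 and 15.

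Among all tested genes, 590 were higher and 806 lower as reported. DESeq2 gave 1038 higher, limma on TPM gave 438 lower at either pseudocount, and the replicate block gave 1448 higher and 1493 lower, or 1504 and 1696 with the length offset. Replicates 1 and 2 gave 295 and 332, the eggshell and yolk covariate 226 and 169, and the muscle covariate 9 and 4. Leaving out a library gave 182 to 610 higher and 283 to 844 lower. The higher share of calls was 42.3% as reported, 57.5% with upper-quartile scaling (which moved the median of all genes to 0.06), 61.1% with limma on log2(TPM + 1), 57.2% with the eggshell and yolk covariate and 69.2% with the muscle covariate. The 7 member transcripts called became 31 with DESeq2, 3 with the replicate block and 1 to 3 without a library.

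Signs turned in members that had not passed. UQCR-Q was at −0.0044 with the replicate block, −0.18 with the length offset, −0.19 with both and −0.099 with the muscle covariate, and it ran from −0.082 to 0.058 without a library. ATPsynbeta was at −0.049 with the muscle covariate and −0.0093 in replicates 1 and 2, and from −0.034 to 0.079 without a library. ND-51L2 was at −0.44 with the muscle and −0.0011 with the eggshell covariate, and from −0.19 to 0.29 without a library. SdhB was at −0.021 with the muscle covariate and from −0.0026 to 0.079 without a library. With the length offset, ND-MLRQ was at −0.062, COX6B at −0.056 and COX8 at −0.069, and with the block added they were at −0.083, −0.044 and −0.039. COX6B was at −0.023, COX8 at −0.0095 and ATPsynbetaL at −0.93 with the muscle covariate. ATPsynC was at 0.19 with the eggshell covariate and ND-51L1 at 0.029 in replicates 1 and 2. The cause of these changes was not tested.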

Other observations

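In the heat shock list 0 of 12 genes passed in edgeR or DESeq2, 0 had an unadjusted p under 0.05, and the replicate block called 1 higher and 3 lower. There the summed level was 6021 to 12549 TPM in Atx2 KD and 6728 to 11986 TPM in the controls. Of 7 tested testis programme genes, aly, a regulator of the spermatocyte programme, was higher, at 0.753 ± 0.155 CPM (SD, n = 4) against 0.114 ± 0.022 CPM (SD, n = 3), a log2 fold change of 2.70 (SE 0.36, adjusted p = 0.00272), and the other 6 did not pass. Among the 14 germline markers bgcn, the partner of bam, was higher (1.35, SE 0.25, adjusted p = 0.0103), and AGO3 (−1.27), otu (−0.87), nanos (−0.80) and ovo (−0.57) were lower, and the block called 8 lower. The mitochondrial genome took 1.05% to 1.24% of the counts in Atx2 KD and 0.902% to 1.2% in the controls, with overlapping groups.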
